A study of Mus musculus with 12 samples.

Results

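The core circadian clock genes were followed in cultured OPCs of the mouse (oligodendrocyte precursors, which divide and later form myelinating cells) after treatment with a glucocorticoid or with IFN-γ. The set was chosen by gene name and holds 10 of the 55536 genes in the deposited tables. Arntl, Clock and Npas2 make up its activator arm (3 genes), and Per1, Per2, Per3, Cry1, Cry2, Nr1d1 and Nr1d2 its repressor arm (7 genes). In every group the cells came from pooled brains of mouse pups aged P4 to P6, and were grown with the mitogens PDGFaa and bFGF. They were collected through Sox10-GFP, a reporter that Cre under the Sox10 promoter switches on in oligodendroglia, or with magnetic beads against CD140a, the PDGF receptor of OPCs. Ctr-OPCs were left untreated, Dexa-treated OPCs received the synthetic glucocorticoid dexamethasone (1 µM, 48 h), and IFN-γ-treated OPCs received that cytokine (100 ng/ml, 48 h). Each group has 4 total RNA-seq libraries from different litters, numbered 1 to 4. The labels also give EAE, a mouse model of multiple sclerosis, as the mouse model, although these are cultures from pups. The hour of harvest, and which of the 2 isolation methods served a given culture, were not given in the sources used here, and each culture was read at a single time.

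In 11 libraries, between 19209059 and 52074655 reads were assigned to genes. The table of Dexa replicate 3 is incomplete (6615253 reads). It lists 6 of the 10 clock genes whole, Per1, Per2, Cry1, Npas2, Nr1d1 and Nr1d2, and enters the fits over only those genes that every table lists whole. The labels were checked with 6 glucocorticoid genes, among them the receptor gene Nr3c1, and with 6 interferon targets. DESeq2 called 3 of the 6 glucocorticoid genes higher in Dexa-treated OPCs (Fkbp5, Klf9 and Zbtb16), beside 0.547% of all genes. With the replicate number in the fit it called 5, all but Nr3c1. It called 6 of 6 interferon targets higher in IFN-γ-treated OPCs, beside 12.8%. There it called Zbtb16 lower, and with the replicate number also Sgk1 lower and Klf9 and Tsc22d3 higher. In Dexa-treated OPCs 0 of the 6 interferon targets were called by DESeq2, with or without the replicate number, and 0 had an unadjusted p under 0.05. The 6 OPC markers summed to 751 to 1318 TPM in Ctr-OPCs, 912 to 1334 TPM in Dexa-treated OPCs and 659 to 1269 TPM in IFN-γ-treated OPCs, where TPM is a count per length scaled to the same total in each library. Against Ctr, 0 of the 6 were called by DESeq2 or edgeR in either treatment, with 0 at an unadjusted p under 0.05. With the replicate number as a block, which sets libraries of the same number against each other, both tools called Pdgfra (log2 fold change -0.61 in DESeq2), Cspg4 (-0.60) and Sox10 (-0.56) lower after IFN-γ, each lower in 4 of 4 replicate numbers, and Cspg4 higher with Dexa (0.65, in 3 of 3). Markers of microglia stayed at or below 0.916 TPM in sum, and Aif1, Cx3cr1, C1qa and Itgam had under 10 reads in every complete library. The 6 astrocyte markers summed to 75.5 to 196 TPM in Ctr-OPCs, 188 to 327 TPM in Dexa-treated OPCs and 188 to 297 TPM in IFN-γ-treated OPCs. Most of each sum was Aldoc, with 144 TPM in Ctr replicate 1, 265 in Dexa replicate 1 and 243 in IFN-γ replicate 2, the highest library of each group. The 5 neuronal markers summed to 13.4 to 15.9, 17.8 to 20.5 and 27.1 to 60.0 TPM in the same order, with Stmn2 under 10 reads in every complete library. Most of this sum was Tubb3 (56.1 TPM in IFN-γ replicate 1). DESeq2 called 0 of the 6 astrocyte markers in Dexa-treated OPCs and 2 (Gfap and Aldoc) in IFN-γ-treated OPCs, where Gfap reached at most 3.27 TPM, and of the 5 neuronal markers it called Tubb3 and Syt1 higher with IFN-γ. With the block it called Aldoc (0.98) and Gfap (1.64) higher in Dexa-treated OPCs, each higher in 4 of 4 replicate numbers (edgeR called Aldoc alone), and 5 of the 6 astrocyte markers after IFN-γ (Gfap, Aldoc and Aldh1l1 higher, Aqp4 and Gja1 lower), and it added Snap25, higher with Dexa and lower with IFN-γ. These shares stand beside 2.57% of all genes called for Dexa and 29.2% for IFN-γ with the block in DESeq2. DESeq2, with and without the block, also called the endothelial marker Flt1 higher with Dexa (at most 0.690 TPM). It likewise called Lum, a pericyte or leptomeningeal marker, higher with IFN-γ (at most 1.35 TPM). Of the mature oligodendrocyte markers 0 were called against Ctr. Marker genes of several cell types thus moved with the treatments, and their part in the clock gene values was not tested.

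The mammalian clock is a loop of transcription that runs in nearly every cell. BMAL1, the product of Arntl, pairs with CLOCK or with its paralogue NPAS2 and switches on genes that carry E-boxes, among them the Per and Cry genes, and PER and CRY proteins then return to the nucleus and silence BMAL1 and CLOCK. A side loop runs through the nuclear receptors REV-ERBα (Nr1d1) and REV-ERBβ (Nr1d2), which are themselves E-box genes and repress Arntl through the element that ROR receptors use to activate it. Glucocorticoids are a known time signal for peripheral clocks, and Per1 and Per2 are known direct targets of the glucocorticoid receptor.

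The start regions of the clock genes carry the letters through which this loop is known to work, and they are shown because the genes described below differ in which of them they hold. Promoter windows of 300 bases, from 250 bases before to 50 after a start site, came from RefSeq on GRCm38.p6 and were found for 9 of the 10 members. Per2 had no entry. The motifs searched on both strands were the E-box CACGTG, the E′-box CACGTT, the D-box TTATGTAA (bound by DBP, TEF and HLF, and by their rival NFIL3), the cyclic AMP element TGACGTCA, the ROR element TAGGTCA, the full glucocorticoid element (2 copies of AGAACA that face each other, 3 bases apart) and a single AGAACA, which lies inside the full element. Of all 32851 promoters, 7.15% hold the E-box, 4.68% the E′-box, 0.938% the D-box, 1.79% the cyclic AMP element, 2.61% the ROR element, 0.00913% the full glucocorticoid element and 19% a single AGAACA. Capitals mark the matches, which can read from the opposite strand, and each line runs 5′ to 3′ along the gene's own strand. Per1 (chr11:69098699-69098998, + strand) has an E-box that begins 166 bases before the start. Per3 (chr4:151044616-151044915, - strand) has no E-box in its window but 2 D-boxes, 205 and 158 bases before the start. Cry1 (chr10:85185005-85185304, - strand) has an E-box 60 bases and an E′-box 79 bases before the start, and Cry2 (chr2:92434020-92434319, - strand) an E′-box 166 bases before it. Nr1d1 (chr11:98775328-98775627, - strand) has an E′-box 28 bases before the start. The downstream of the 2 Arntl windows (chr7:113207261-113207560, + strand) has a ROR element 30 bases after it.
Per1: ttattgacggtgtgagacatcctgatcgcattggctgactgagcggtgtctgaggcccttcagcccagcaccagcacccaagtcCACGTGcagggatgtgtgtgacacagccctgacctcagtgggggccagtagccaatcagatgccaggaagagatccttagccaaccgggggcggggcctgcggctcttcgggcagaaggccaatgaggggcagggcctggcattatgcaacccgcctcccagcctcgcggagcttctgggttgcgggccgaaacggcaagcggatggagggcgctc
Per3: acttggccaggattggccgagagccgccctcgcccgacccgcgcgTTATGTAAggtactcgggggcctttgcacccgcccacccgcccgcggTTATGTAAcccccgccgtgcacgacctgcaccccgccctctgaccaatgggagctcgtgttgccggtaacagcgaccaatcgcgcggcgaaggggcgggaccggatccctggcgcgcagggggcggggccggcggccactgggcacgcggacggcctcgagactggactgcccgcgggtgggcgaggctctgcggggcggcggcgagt
Cry1: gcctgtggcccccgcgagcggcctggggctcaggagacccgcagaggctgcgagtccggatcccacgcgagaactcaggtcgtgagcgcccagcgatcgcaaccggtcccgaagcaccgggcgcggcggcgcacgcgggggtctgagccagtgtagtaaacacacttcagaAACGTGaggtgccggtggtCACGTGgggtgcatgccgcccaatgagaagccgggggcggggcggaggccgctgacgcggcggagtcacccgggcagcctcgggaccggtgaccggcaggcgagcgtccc
Cry2: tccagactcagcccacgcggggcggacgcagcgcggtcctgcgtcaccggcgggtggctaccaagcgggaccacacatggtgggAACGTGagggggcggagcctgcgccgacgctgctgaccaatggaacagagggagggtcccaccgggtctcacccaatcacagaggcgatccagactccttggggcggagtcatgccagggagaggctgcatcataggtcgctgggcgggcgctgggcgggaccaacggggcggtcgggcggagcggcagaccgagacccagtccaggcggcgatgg
Nr1d1: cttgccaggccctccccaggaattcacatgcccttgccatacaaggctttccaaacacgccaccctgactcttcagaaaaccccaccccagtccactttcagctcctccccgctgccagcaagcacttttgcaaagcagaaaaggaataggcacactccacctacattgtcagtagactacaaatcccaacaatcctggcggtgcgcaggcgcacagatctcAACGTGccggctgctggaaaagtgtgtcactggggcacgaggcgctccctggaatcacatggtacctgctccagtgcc
Arntl: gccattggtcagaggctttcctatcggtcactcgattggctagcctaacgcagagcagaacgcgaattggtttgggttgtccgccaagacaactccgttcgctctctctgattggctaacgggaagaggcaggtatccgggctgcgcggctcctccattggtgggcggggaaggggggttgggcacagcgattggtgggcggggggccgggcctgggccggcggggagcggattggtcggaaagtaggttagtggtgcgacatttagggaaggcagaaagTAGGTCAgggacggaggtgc
The windows of Clock, Npas2 and Nr1d2 and a second window of Per1 hold none of these letters. No window found for a member holds AGAACA on either strand, alone or as the full element. Per2 and the furthest upstream start of Per1 had no window, and sites outside the windows were not searched. A match describes the letters in a window and was not tested for binding.

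Before any treatment, Clock was the most abundant of the 10 transcripts per length and Npas2 the least. The repressors and the activator Arntl lay between them. Levels between genes were compared in TPM. Clock stood at 7.71 ± 0.97 TPM (SD, n = 4) in Ctr-OPCs, above Nr1d2 at 5.50 ± 0.79, and their libraries did not overlap. Nr1d2, Cry1 (5.29 ± 0.46), Arntl (4.78 ± 0.95) and Cry2 (3.86 ± 0.21) followed in an order whose neighbours overlapped. Cry2 lay above Per1 in every Ctr library. Per1 (2.34 ± 0.33), Per3 (1.98 ± 0.42), Per2 (1.71 ± 0.24) and Nr1d1 (1.56 ± 0.16 TPM) again overlapped from neighbour to neighbour. Npas2, which stands in for CLOCK in forebrain tissue, reached 0.077 ± 0.034 TPM, and 6 to 36 reads per library, so its values carry a large counting error. The order was the same when normalised read counts were divided by length. In Dexa-treated OPCs Per1 moved from rank 6 to rank 2 by mean TPM and Nr1d2 from rank 2 to rank 6, while Per3 went from rank 7 to rank 9. In IFN-γ-treated OPCs Per1, Per2 and Per3 kept ranks 6, 8 and 7, and Arntl stood at rank 2.

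**Figure D1:**
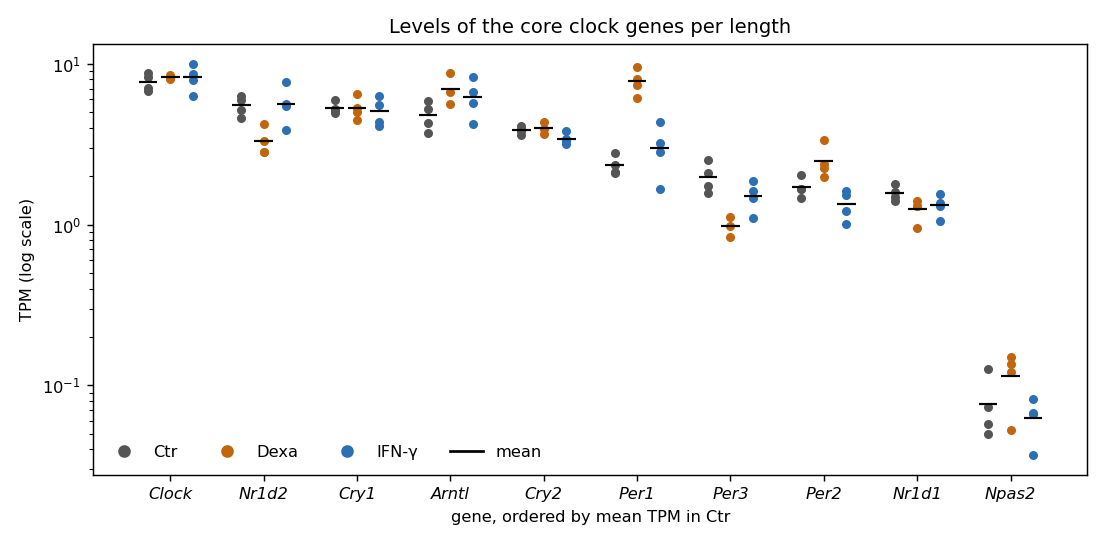
TPM of each core clock gene (log scale) in every library that lists it, ordered by the mean in Ctr-OPCs. Points are libraries coloured by group and bars are group means. By group mean Clock lies highest and Npas2 lowest in each group, although Per1 (9.53 TPM) and Arntl (8.69) exceed Clock (8.54) in Dexa replicate 1 and Arntl (8.28) exceeds Clock (7.96) in IFN-γ replicate 1. Per1 rises from the middle of the Ctr order to 6.13 to 9.53 TPM in Dexa-treated OPCs.

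Dexamethasone moved the clock genes in both directions, and the Per family with them. Per1 rose about 3.25-fold, while Per3 fell to 0.522 of its Ctr level and Nr1d2 to 0.606. The activator Npas2 was 2.35-fold higher, on 6 to 36 reads per library, and was called in only 2 of 16 alternative settings. These are 4 of the 10 members called by DESeq2 without the replicate block (adjusted p under 0.05), against 0.547% of all genes tested (98 of 17919). With the block DESeq2 called Per2 and Arntl as well, and not Npas2. Of all genes tested only 7 (0.0391%) were called lower, and Per3 and Nr1d2 are 2 of them. The median log2 fold change of the 10 members was 0.07, with 7 positive and 3 negative, beside -0.01 over all genes.

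Per1 and Per2 encode the PER proteins that carry CRY into the nucleus. Per1 stood at 396, 369, 295 and 369 normalised read counts (reads divided by DESeq2's size factor) in Ctr-OPC replicates 1 to 4, and at 1229, 1128, 1145 and 1120 in Dexa-treated OPCs. The lowest Dexa library held more than the highest Ctr library with Dexa replicate 3 included, and the spread within Dexa was small (1156 ± 50.2, SD, n = 4). On the log2 scale the rise was 1.70 ± 0.16 (SE). The adjusted p was 4.32e-23 in DESeq2 and 0.00183 in edgeR's quasi-likelihood test, and Per1 was called in 16 of 16 alternative settings.

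Per2 gave 558, 579, 485 and 463 normalised read counts in Ctr-OPCs and 1009.15, 706, 752 and 599 in Dexa-treated OPCs. Every Dexa library was above every Ctr library, and replicate 1 stood highest. The difference of 0.57 ± 0.20 (log2, SE) was not called without the replicate number (adjusted p = 0.429 in DESeq2), but with the replicate number as a block it was 0.49 ± 0.13 (adjusted p = 0.00641 in DESeq2 and 0.0561 in edgeR). Over 12 libraries with the block the adjusted p was 1.08e-04 in DESeq2, where 3.61% of the genes listed whole were called, and 0.0158 in edgeR, where 1.88% were called (the edgeR fit over 12 libraries was chosen after seeing the data).

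Per3, a paralogue that the loop can run without, went the other way. Its values were 529, 598, 537 and 454 normalised read counts in Ctr-OPCs, and 232, 292 and 309 in Dexa replicates 1, 2 and 4. The groups did not overlap. This was a log2 fold change of -0.94 ± 0.14 (SE, adjusted p = 7.22e-08 in DESeq2, 0.0418 in edgeR), and it was called in 13 of 13 alternative settings.

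The CRY proteins are the main repressors of BMAL1 and CLOCK, and their transcripts were not called. Cry1 ranged from 597 to 735 normalised read counts in Ctr-OPCs and from 657 to 800 in Dexa-treated OPCs, a log2 fold change of 0.07 with a 95% interval of -0.18 to 0.32. Cry2 ranged from 665 to 806 and, over 3 Dexa libraries, from 702 to 792 normalised read counts. Its log2 fold change was 0.06, with a 95% interval of -0.17 to 0.29. Both groups overlapped for each gene.

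Of the activators, Npas2 and Arntl were higher in most Dexa libraries and Clock was not distinguishable. Npas2 stood at 11.9, 14.9, 11.02 and 13.0 normalised read counts in Ctr-OPCs, and at 32.4, 30.3, 12.1 and 26.2 in Dexa-treated OPCs. Dexa replicate 3, with 6 reads, lay inside the Ctr range, while the other 3 Dexa libraries were above it. Without that library the log2 fold change was 1.23 ± 0.33 (SE, adjusted p = 0.0351 in DESeq2, 0.125 in edgeR). With all 12 libraries it was 1.04 ± 0.34 (adjusted p = 0.267), and with the block over 11 libraries 1.11 ± 0.45 (adjusted p = 0.25), so the call is lost in both. It is also lost when any 1 of the 7 complete Ctr and Dexa libraries is left out (adjusted p = 0.0730 to 0.430 in DESeq2), and in a fit of these 2 groups alone (adjusted p = 0.0607).

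Arntl encodes BMAL1, the partner the activators share. It stood at 892, 662, 490 and 630 normalised read counts in Ctr-OPCs, and at 1163, 943 and 767 in Dexa replicates 1, 2 and 4. The groups overlapped. Replicate 1 was highest in all 3 groups, and Dexa was higher than Ctr within each of the 3 replicate numbers. Its log2 fold change was 0.52 ± 0.26 (SE, adjusted p = 1 in DESeq2) without the block, and 0.41 ± 0.10 with it (adjusted p = 0.00148 in DESeq2, 0.0217 in edgeR). Clock held 2538 to 2934 normalised read counts in Ctr-OPCs and 2807 to 2888 in Dexa-treated OPCs, a log2 fold change of 0.08 with a 95% interval of -0.12 to 0.28.

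The REV-ERB receptors close the side loop onto Arntl. Nr1d2 gave 951, 1097, 1000.13 and 996 normalised read counts in Ctr-OPCs, and 460, 618, 498 and 765 in Dexa-treated OPCs. All 4 Dexa libraries lay below all Ctr libraries, with replicate 4 nearest to them. As a log2 fold change this was -0.72 ± 0.20 (SE, adjusted p = 0.0425 in DESeq2, 0.472 in edgeR). With the block it was -0.80 ± 0.14 (adjusted p = 4.53e-06 in DESeq2, 0.0196 in edgeR), and with 12 libraries -0.79 ± 0.18 (adjusted p = 0.00428, in a fit that called 0.364% of the genes listed whole). Without the block, the call over 11 libraries was lost when Ctr replicate 1, 2, 3 or 4 or Dexa replicate 1 or 2 was left out (adjusted p = 0.0787 to 0.423 in DESeq2) and kept without Dexa replicate 4 (adjusted p = 0.00189). Nr1d1 stood at 150, 162, 140 and 176 in Ctr-OPCs and at 148, 124, 103 and 121 normalised read counts in Dexa-treated OPCs. It was lower within 4 of 4 replicate numbers, but the groups overlapped, and the log2 fold change of -0.25 had a 95% interval of -0.57 to 0.06 and was not called in any of 16 alternative settings.

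**Figure D2:**
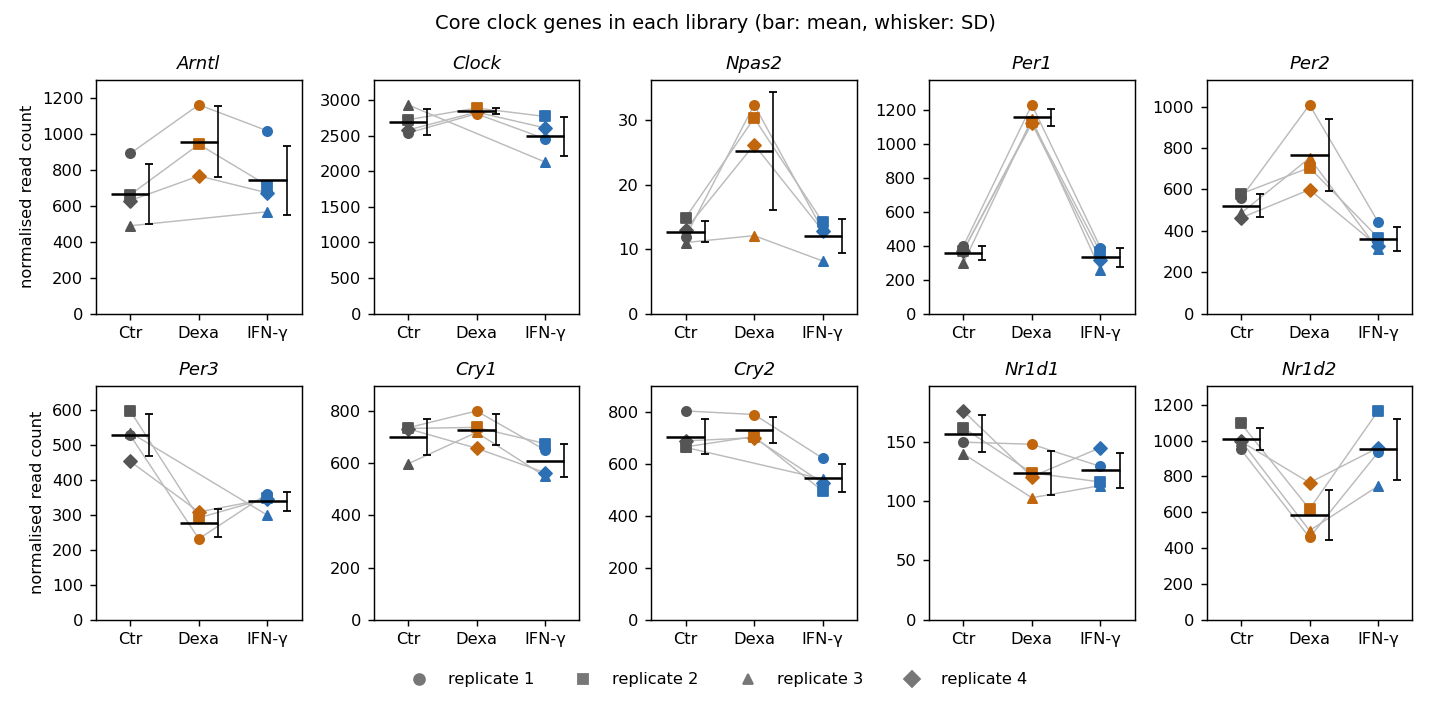
Normalised read counts of the 10 core clock genes in each library, with 1 panel per gene and an axis from 0. Symbols mark the replicate number, grey lines join libraries of the same number, bars are means and whiskers SD. Per1 in Dexa-treated OPCs sits between 1120 and 1229, above all other libraries, and Per3 is lower in both treated groups than in Ctr-OPCs.

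Over the 11 complete libraries, Dexa and Ctr did not overlap for 5 of the 10 members, against 4.26% of all genes tested. With Dexa replicate 3 added where it lists the gene, 4 remained (Per1 and Per2 higher, Per3 and Nr1d2 lower), since Npas2 then overlapped. Within replicate numbers, 5 of the 10 members were higher in Dexa in every pair, 3 were lower in every pair (Per3, Nr1d1 and Nr1d2), and Cry1 and Cry2 were mixed. These results hold for normalised read counts. In TPM, Clock was lower in replicate 2 and Npas2 in replicate 3, Cry2 was higher in each pair, and the Per2 groups overlapped. With the block, DESeq2 called 5 of the 10 members (Per1, Per2 and Arntl higher, Per3 and Nr1d2 lower), against 2.57% of all genes, and edgeR called 4 (the same without Per2), against 1.57%. Without the block edgeR called Per1 and Per3, against 0.123%. In DESeq2's fit with the block the astrocyte markers Aldoc and Gfap and the OPC marker Cspg4 were higher, and their part in these calls was not tested. In a bulk library, a change in the RNA of each cell and a change in the share of cells that make it cannot be told apart.

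After IFN-γ, 3 members of the repressor arm were called lower and none of the 10 members was called higher. Per3 fell to 0.638 of its Ctr level, Per2 to 0.694 and Cry2 to 0.776. These 3 of 10 members were called by DESeq2 without the block, all lower, against 12.8% of all genes in either direction and 4.83% in the lower direction. With the block the same 3 were called, a share near the 29.2% of all genes. The median log2 fold change of the 10 was -0.15, with 1 positive and 9 negative, beside a median near 0 over all genes.

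Per3 stood at 362, 348, 299.5 and 347 normalised read counts in IFN-γ-treated OPCs, all below the lowest Ctr library at 454. The log2 fold change was -0.64 ± 0.13 (SE, adjusted p = 1.97e-05 in DESeq2, 0.0101 in edgeR), and it was called in 14 of 14 alternative settings.

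Per2 stood at 443, 367, 310.0 and 325 in IFN-γ-treated OPCs, again below every Ctr library (463 or more), on the side opposite to its Dexa values. The log2 fold change was -0.53 ± 0.19 (SE, adjusted p = 0.0465 in DESeq2, 0.107 in edgeR), and with the block -0.54 ± 0.12 (adjusted p = 3.06e-05 in DESeq2, 0.00203 in edgeR). Without the block the call was lost when Ctr replicate 1, 2, 3 or 4 or IFN-γ replicate 2, 3 or 4 was left out (adjusted p = 0.0613 to 0.173 in DESeq2) and kept without IFN-γ replicate 1 (adjusted p = 0.0145). It was also lost with edgeR's TMM scaling (adjusted p = 0.0502) and with no filter on low counts (adjusted p = 0.0570, both in DESeq2).

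Cry2 gave 806, 667, 665 and 691 normalised read counts in Ctr-OPCs and 623, 497, 543 and 528 in IFN-γ-treated OPCs. The groups did not overlap, and the ratio was even, with log2 ratios of -0.43 to -0.29 within the 4 replicate numbers. The log2 fold change was -0.37 ± 0.11 (SE, adjusted p = 0.00868 in DESeq2, 0.0552 in edgeR) and -0.37 ± 0.10 with the block (adjusted p = 1.28e-04 in DESeq2, 0.00118 in edgeR). Without IFN-γ replicate 2, the lowest of the 4, the adjusted p without the block was 0.0697 in DESeq2. Cry1, at 650, 675, 549 and 564 normalised read counts, was lower than its Ctr library in each replicate number, but overlapped Ctr as a group. Its log2 fold change was -0.20, with a 95% interval of -0.43 to 0.04.

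Per1, which dexamethasone raised, held 388, 361, 256 and 317 normalised read counts in IFN-γ-treated OPCs, within or just below the Ctr range. Its log2 fold change of -0.11 had a 95% interval of -0.40 to 0.19. Of the REV-ERB genes, Nr1d1 held 129, 116, 113 and 145 normalised read counts, a log2 fold change of -0.32 ± 0.14 (SE, adjusted p = 0.146), and Nr1d2 ranged from 747 to 1166, a log2 fold change of -0.09 with a 95% interval of -0.44 to 0.27. Neither was called in any of 17 alternative settings.

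The activators were not called after IFN-γ. Arntl held 1018, 714, 568 and 673 normalised read counts, each above the Ctr library of its own number, with log2 ratios of 0.10 to 0.21, and a log2 fold change of 0.15 with a 95% interval of -0.32 to 0.63. Clock ranged from 2129 to 2769 and Npas2 from 8.16 to 14.2 normalised read counts, with log2 fold changes of -0.11 and -0.08. IFN-γ replicate 3 was the lowest IFN-γ library for 9 of the 10 members (all but Cry2).

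**Figure D3:**
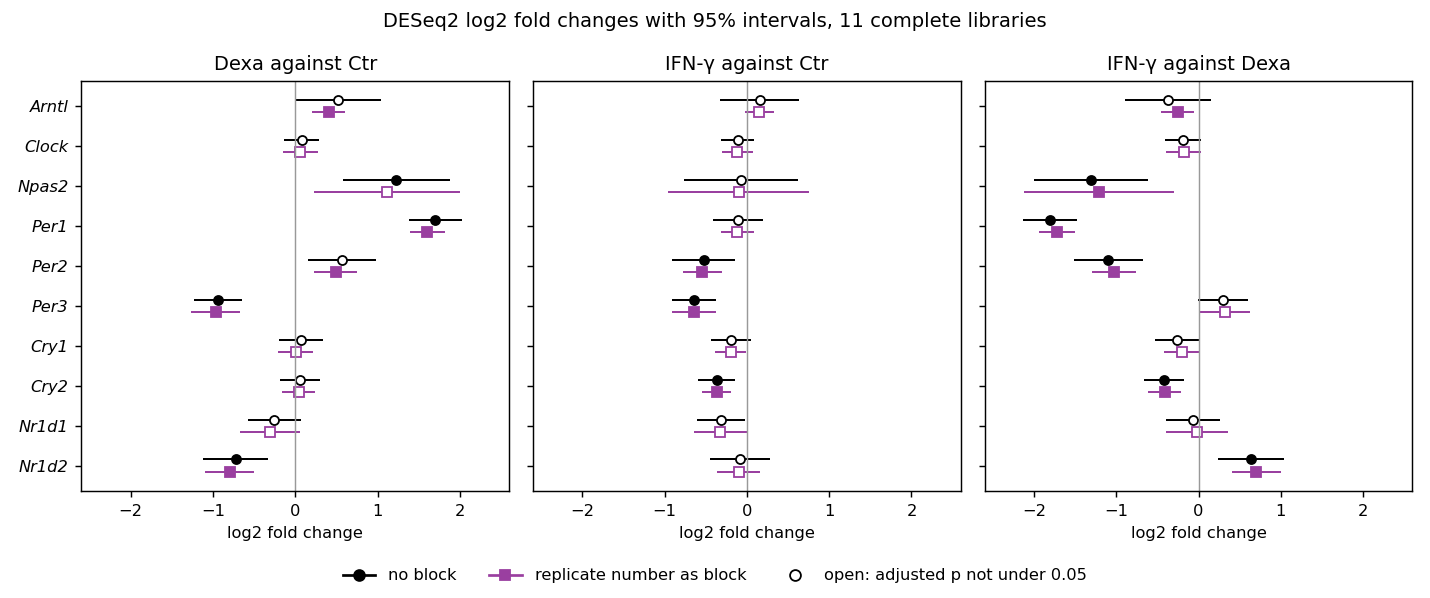
DESeq2 log2 fold changes (points) with 95% intervals (lines) of the 10 core clock genes in the 3 comparisons over 11 complete libraries, in black without and in purple with the replicate number as a block. Filled points have an adjusted p under 0.05. Per1 lies at 1.70 for Dexa against Ctr and at -0.11 for IFN-γ against Ctr, and Per3 lies below 0 in both.

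The groups IFN-γ and Ctr did not overlap for 3 of the 10 members (Per2, Per3 and Cry2, all lower), against 14.3% of all genes tested. Within replicate numbers, 6 members were lower with IFN-γ in every pair (Per1, Per2, Per3, Cry1, Cry2 and Nr1d1), Arntl was higher in every pair, and 3 were mixed. These results hold for normalised read counts. In TPM, Per2, Cry2 and Nr1d1 were lower in every pair. Per1 was higher in TPM in replicates 1, 2 and 4, Cry1 in replicates 1 and 2, and Per3 in replicate 4. The Per2, Per3 and Cry2 groups also overlapped in TPM. With the block, DESeq2 and edgeR each called Per2, Per3 and Cry2, against 29.2% and 31.3% of all genes. Without it edgeR called Per3, against 8.44%. In these 3 fits the share of members called was near that of all genes. In the blocked fits the OPC markers Pdgfra, Cspg4 and Sox10 were lower as well, at log2 fold changes of -0.61 to -0.56, and their part in these calls was not tested. The Ctr libraries are shared by both comparisons, so the fall of Per3 in both rests in part on the same 4 values.

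**Figure D4:**
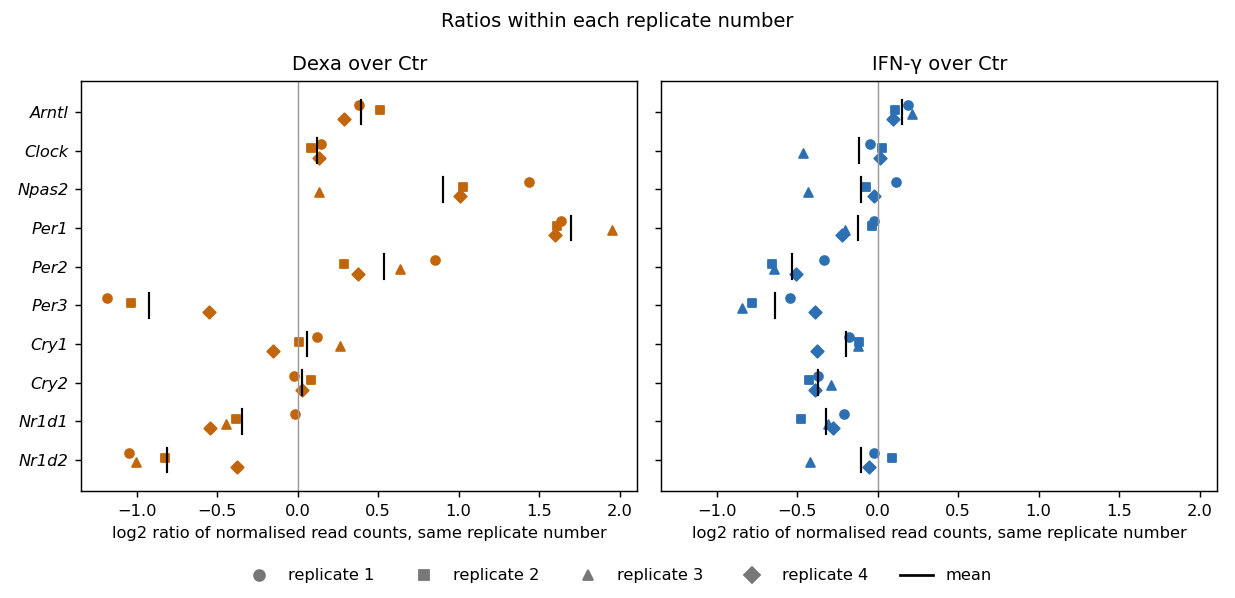
Log2 ratios of normalised read counts between a treated library and the Ctr library of the same replicate number, for Dexa (left) and IFN-γ (right), on a shared axis. Symbols mark the replicate number and bars the mean. Per1 over Ctr lies at 1.60 to 1.95 for Dexa, and Cry2 over Ctr at -0.43 to -0.29 for IFN-γ.

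Set directly against each other, the treatments differed most in Per1, Npas2 and Per2. IFN-γ-treated OPCs held 0.286 of the Per1 and 0.468 of the Per2 level of Dexa-treated OPCs, and less Npas2 (0.405) and Cry2 (0.749), but 1.55 times as much Nr1d2. These 5 of the 10 members were called by DESeq2, against 13.1% of all genes tested. The log2 fold changes, IFN-γ over Dexa, were -1.81 ± 0.16 for Per1 (adjusted p = 1.45e-27), -1.09 ± 0.21 for Per2 (adjusted p = 3.11e-06) and -1.31 ± 0.35 for Npas2 (adjusted p = 0.00252). For Cry2 it was -0.42 ± 0.12 (adjusted p = 0.00477), and for Nr1d2 0.64 ± 0.20 (SE, adjusted p = 0.0123, all in DESeq2). In edgeR, which called 8.77% of all genes, Per1, Per2, Npas2 and Cry2 were called as well and Nr1d2 was not (adjusted p = 0.0549). The DESeq2 call of Cry2 was lost without Dexa replicate 1 (adjusted p = 0.0612), and that of Nr1d2 without Dexa replicate 1 or 2 or IFN-γ replicate 2 (adjusted p = 0.0842, 0.0682 and 0.0721) and in a fit of these 2 groups alone (adjusted p = 0.0590).

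Per3, lower than Ctr in both treated groups, did not pass the test between them, at a log2 fold change of 0.29 with a 95% interval of 0.00 to 0.58 (adjusted p = 0.205). Arntl passed with the block (-0.26 ± 0.10, SE, adjusted p = 0.0279 in DESeq2, 0.0216 in edgeR) and not without (adjusted p = 0.441). With the block 6 of the 10 were called by each tool, against 31.6% of all genes in DESeq2 and 33.7% in edgeR. The groups did not overlap for 5 members in the complete libraries, Per1, Per2, Cry2, Clock and Npas2, all lower with IFN-γ, against 19.9% of all genes. With Dexa replicate 3 added, Npas2 overlapped and 4 remained. This is for normalised read counts, and in TPM Cry2 and Clock overlapped too.

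Transcript models were checked for a shift in start sites, since Salmon divides a gene's reads among them and the division is an estimate. Per1 reads went mainly to a transcript that starts by the window printed above, with 71.1% ± 2.9 in Ctr-OPCs and 67.6% ± 1.2 in Dexa-treated OPCs (SD, n = 4). A transcript that starts further upstream took 25.5% ± 3.3 and 27.0% ± 3.0. For the first, every Dexa library (68.7% at most) lay just below every Ctr library (68.9% at least), and for the second the groups overlapped. Transcripts with later starts took 3.5% ± 0.8 in Ctr-OPCs and 5.4% ± 2.0 in Dexa-treated OPCs, and the groups overlapped. For Per3, the main coding transcript took 73.6% ± 2.8 of reads in Ctr-OPCs (n = 4) and 78.6% ± 2.3 in Dexa-treated OPCs (n = 3), and from 36.3% to 78.5% across the IFN-γ libraries. Nr1d2 transcripts annotated as retained introns took 9.4% ± 2.6 of its reads in Ctr-OPCs and 12.3% ± 2.2 in Dexa-treated OPCs (SD, n = 4), and its coding transcripts took the rest.

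Genes whose values ran most like a member's were ranked over the 11 complete libraries by Pearson's r of log2 normalised read counts. These values include the group differences and any effect of the replicate number, and r is a description. The nearest to Per1 were Chst2 (0.985), Hif3a (0.973) and Npas2 (0.973), and the nearest to Npas2 were Per1, Crispld2 (0.957) and Chst2 (0.949). For Per2 they were Atp2a3 (0.983), Col5a3 (0.974) and Piezo2 (0.974). For Per3 the nearest were Unc13b (0.867), Sstr4 (0.845) and Sh3bgr (0.843), and for Nr1d2 Thumpd1 (0.896), Fgfr1op2 (0.874) and Gtf2f2 (0.872). For Cry1 they were Klhl21 (0.954), Atf1-ps (0.932) and Pisd (0.929), and for Cry2 Ndufb2 (0.983), Tmem94 (0.977) and Sez6 (0.973). Arntl ran closest to Atrnl1 (0.986), Slc2a1 (0.986) and Sema4b (0.985), and Clock to Gm48228 (0.926), Klhl12 (0.859) and Gm44646 (0.858). Nr1d1 ran closest to Snhg10 (0.841), Bfsp1 (0.830) and A630072L19Rik (0.828). Apart from Per1 and Npas2, no member had another member among its nearest 3.

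The clock's output genes are driven by E-boxes, D-boxes and ROR elements. Of 9 such genes, 0 were called in Dexa-treated OPCs by DESeq2 without the block, with 3 at an unadjusted p under 0.05 and 0.547% of all genes called. With the block 2 were called, both lower, beside 2.57% of all genes, and in edgeR Tef alone, beside 1.57%. Ciart, a repressor of BMAL1 and CLOCK, held 85.4, 81.8, 68.9 and 77.1 normalised read counts in Ctr-OPCs and 45.3, 39.6 and 54.2 in Dexa replicates 1, 2 and 4, without overlap. Its log2 fold change with the block was -0.87 ± 0.26 (SE, adjusted p = 0.0319 in DESeq2, 0.0535 in edgeR). Its promoter window held 3 E-boxes. Tef, a D-box activator, held 3036, 3577, 3334 and 3125 in Ctr-OPCs and 2399, 2829, 2536 and 2806 normalised read counts in Dexa-treated OPCs, also without overlap. With the block its log2 fold change was -0.29 ± 0.08 (adjusted p = 0.00592 in DESeq2, 0.0391 in edgeR). Dbp, the best-known output gene, had a log2 fold change of -0.45 ± 0.22 without the block (adjusted p = 1 in DESeq2).

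After IFN-γ, 1 of the 9 output genes was called, a share near the 12.8% of all genes called. Nfil3, the D-box repressor, rose from 274, 327, 384 and 355 normalised read counts to 472, 437, 489.5 and 454, without overlap (log2 fold change 0.47 ± 0.12, adjusted p = 0.00232 in DESeq2, 0.0419 in edgeR). With IFN-γ against Dexa, Nfil3 was again the only output gene called without the block (0.39 ± 0.14, adjusted p = 0.0353 in DESeq2, beside 13.1% of all genes), and edgeR did not call it (adjusted p = 0.118). Dexa replicate 3, which is outside these fits, held 488 normalised read counts of Nfil3, beside 489.5 in IFN-γ replicate 3. With that library added the groups overlapped. With the block Wee1, a cell cycle kinase, was also called higher (0.64 ± 0.18, adjusted p = 0.002 in DESeq2, 0.0249 in edgeR), beside 31.6% and 33.7% of all genes. The log2 ratios of Wee1 were 0.11, 0.37 and 1.33 in replicates 1, 2 and 4, and the groups overlapped. In edgeR the block added Ciart, higher than in Dexa (0.60, adjusted p = 0.0334). After IFN-γ against Ctr the block in edgeR added Tef, lower (-0.15, adjusted p = 0.0484), beside 31.3% of all genes.

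Of the 3 ROR genes, whose products activate Arntl, Rora was called higher after IFN-γ, beside 12.8% of all genes. It held 639, 581, 557 and 552 normalised read counts in Ctr-OPCs and 681, 976, 913 and 946 after IFN-γ, which is 0.59 ± 0.13 on the log2 scale (SE, adjusted p = 1.06e-04 in DESeq2, 0.00743 in edgeR). Rorb was called with the block (0.72 ± 0.10, adjusted p = 1.5e-12 in DESeq2, 7.67e-05 in edgeR), where 29.2% and 31.3% of all genes were called. It was not called without the block (adjusted p = 0.119 in DESeq2). In Dexa-treated OPCs 0 of the 3 were called (0 at an unadjusted p under 0.05, and 0 by either tool with the block). Rora held 739, 672 and 645 normalised read counts in Dexa replicates 1, 2 and 4, all above the highest Ctr library (639). Groups without overlap made up 4.26% of all genes tested there, in either direction. Of 12 partners and modifiers of the core proteins, 0 were called in Dexa-treated OPCs by DESeq2 (1 at an unadjusted p under 0.05, 0 by either tool with the block), where 0.547% of all genes were called. After IFN-γ 1 of the 12 was called, beside 12.8% of all genes. It was Nono, an RNA-binding partner of PER (0.17 ± 0.06, adjusted p = 0.0409 in DESeq2), which edgeR did not call without the block (adjusted p = 0.190) and called with it (adjusted p = 0.0302). Against Dexa, Nono was called higher by both tools (0.33 ± 0.06, adjusted p = 7.29e-06 in DESeq2, 0.0186 in edgeR), beside 13.1% and 8.77% of all genes. After IFN-γ against Ctr, the block added Timeless, which also acts in DNA replication, higher (0.59 ± 0.15, adjusted p = 5.02e-04 in DESeq2, 0.0141 in edgeR) and Csnk1d, a kinase that marks PER for breakdown, lower (-0.20 ± 0.06, adjusted p = 0.00431 in DESeq2, 0.00993 in edgeR), beside 29.2% of all genes in DESeq2. With IFN-γ against Dexa the block added Rora, Rorb and Timeless, higher, and Csnk1d, lower, in both tools. These calls stand beside 31.6% of all genes in DESeq2 and 33.7% in edgeR. The log2 ratios of Timeless were uneven, at 0.24, 0.45, 1.09 and 1.09 in replicates 1 to 4.

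**Figure D5:**
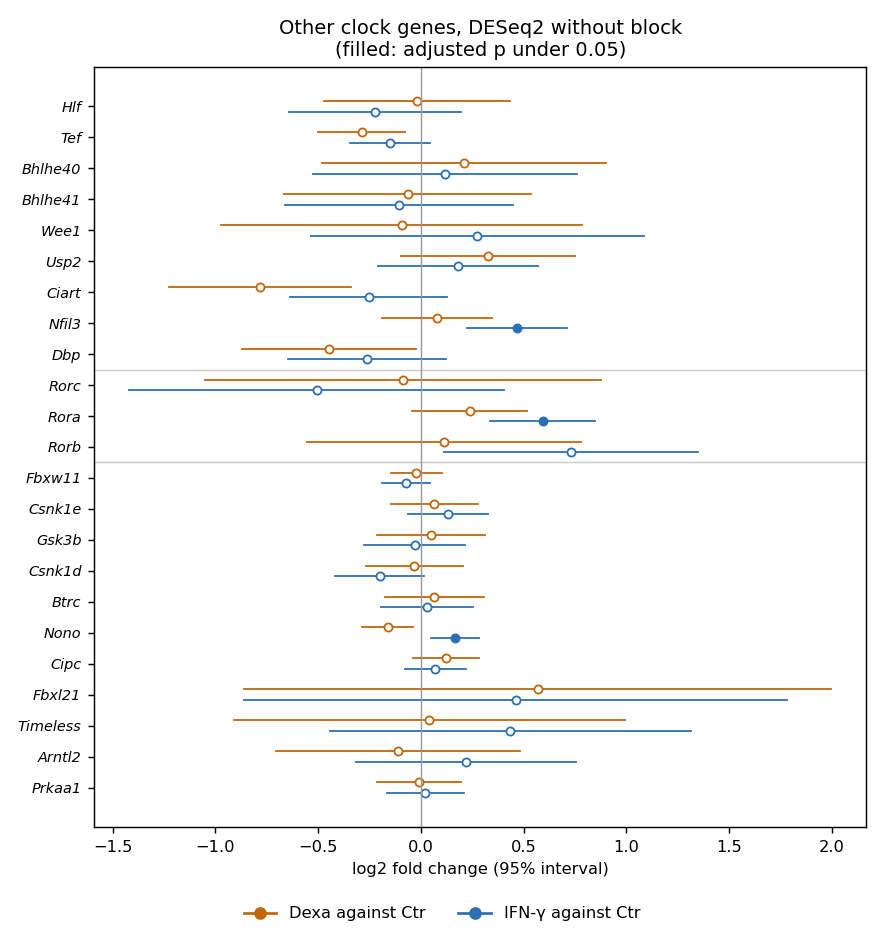
DESeq2 log2 fold changes with 95% intervals of clock output genes (top), ROR genes (middle) and most partners of the core proteins (bottom) against Ctr, without the replicate block, in orange for Dexa and in blue for IFN-γ. Filled points have an adjusted p under 0.05, which Nfil3, Rora and Nono reach for IFN-γ and none for Dexa.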

How the data were processed

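Total RNA-seq libraries (strand-specific, ribosomal RNA depleted, paired ends) were quantified by the authors with Salmon 0.8.2 against a GRCm38 transcriptome. The deposited values are estimated counts and TPM per transcript. The transcript identifiers match Ensembl 96 (0 without a gene), while the study's methods name another Ensembl release for alignment. Estimated counts were summed per gene and rounded to whole numbers. TPM was summed per gene as deposited and used to compare levels between genes and for marker sums. The authors' own DESeq2 tables (fold changes, p-values) were not used.

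The deposited table of Dexa replicate 3 ends after 47855 of 141862 transcripts (33.7%). The main test, DESeq2 1.42.0's Wald test with Benjamini-Hochberg adjustment, therefore used 11 libraries and the 17919 genes that reached 10 counts in 4 or more libraries, with no block. Separate fits used 12 libraries and the 6314 tested genes that every table lists whole. For its normalised read counts, Dexa replicate 3 was scaled over these genes only. Alternatives were edgeR 4.0.16's quasi-likelihood test, the replicate number as a block, TMM scaling, no filter, only the compared groups, and leaving out each library. In counts simulated with no effect of the replicate number, a larger share of DESeq2's calls than of edgeR's was false. They do not cover such an effect in these data, and edgeR's result is given beside DESeq2's calls of clock genes.

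Deviations from the group means correlated at 0.404 to 0.722 between libraries of the same replicate number and at -0.613 to 0.494 between others. These ranges overlap, and libraries of the same number were treated as pairs. Replicates came from different litters, but the paper does not state that a number marks the same litter in every group. None of the replicates agreed within sampling noise. Depth was 19209059 to 52074655 reads per complete library. Errors cover replicate spread and counting, and PCR copies were not told apart. Member genes and lists were chosen with earlier results of these data known. Named were all members, every other clock gene called with or without the block (1 of them is not reported here), a few further list genes in list order, and the 3 genes most like each member. Versions were R 4.3.3 and Python 3.11.15.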

Additional observations from a re-analysis of the deposited data

Results flagged for a closer look

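Cry1 in Ctr-OPC replicate 3 stood apart from the other Ctr libraries, at 597 normalised read counts against 732 to 735. Its gap to the nearest library was 0.976 of the group's range, above Dixon's 95% critical value for 4 samples. Of 26 groups of 4 libraries tested this was the only one, and chance flags about 1 in 20. Without this library the log2 fold change of Cry1 was not called in any comparison with Ctr.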

How the results depend on the processing

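Per1 with Dexa, Per3 with Dexa and with IFN-γ, and Per1, Per2 and Npas2 between the treatments kept their direction and call in every alternative tried. The calls of Npas2 and Nr1d2 with Dexa and of Per2 and Cry2 with IFN-γ, and of Cry2 and Nr1d2 between the treatments, did not, and their values stand beside the results. Over 11 libraries in DESeq2, the block changed no call of a member other than those of Per2, Arntl and Npas2 with Dexa and Arntl between the treatments. The scalings moved the median of all genes by less than 0.1 (log2). Npas2 (6 to 36 reads) is limited by depth. The cause of the changes below was not tested.

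With Dexa against Ctr, the 4 members called became 2 in edgeR and 2 to 3 when a library was left out. Genes called went from 98 to 22 in edgeR, 460 with the replicate block in DESeq2 and 282 with it in edgeR, and 59 to 112 when a library was left out (59 without Dexa replicate 2). The 0 other clock genes called became 2 and 1 with the block in DESeq2 and edgeR. Among genes listed whole, the 25 called became 228 and 119 with 12 libraries and the block (DESeq2, and edgeR, which was added after the data were seen). Nr1d2 was not called when p was adjusted over these genes alone in 11 libraries (adjusted p = 0.0546 in DESeq2).

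With IFN-γ against Ctr, the 3 members called became 1 in edgeR and 1 to 3 when a library was left out (1 without IFN-γ replicate 2). Genes called went from 2302 to 1513 in edgeR, and to 5238 and 5606 with the block. The 3 other clock genes called became 2 in edgeR, and 6 and 7 with the block. Among genes listed whole, the 827 called became 1980 and 2040 with 12 libraries and the block, and the 1 member 2 in edgeR, with Cry1 the added gene (adjusted p = 0.0458).

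With IFN-γ against Dexa, genes called went from 2345 to 5662 and 6045 with the block, and among genes listed whole from 820 to 2343 and 2427 with 12 libraries and the block. The 5 members called became 3 to 5 when a library was left out (3 without Dexa replicate 1). The 2 other clock genes called became 1 in edgeR, 7 and 9 with the block, and 1 to 2 when a library was left out.

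Directions reversed for values near 0 that were not called. With a library left out, the log2 fold change ranged from -0.00082 to 0.14 for Cry1 and from -0.0041 to 0.12 for Cry2 with Dexa (negative without Dexa replicate 1). With IFN-γ against Ctr it ranged from -0.033 to 0.32 for Arntl (negative without IFN-γ replicate 1), from -0.17 to 0.066 for Npas2 (0.022 without Ctr replicate 2, 0.066 without IFN-γ replicate 3) and from -0.20 to 0.016 for Nr1d2 (positive without IFN-γ replicate 3). With IFN-γ against Dexa it ranged from -0.13 to 0.036 for Nr1d1 (positive without Dexa replicate 1), and with 12 libraries and the block was 0.0063 in DESeq2 and 0.0147 in edgeR.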

Other observations

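The ratio of the summed TPM of the 7 repressor genes to that of the 3 activator genes was 1.64, 1.85, 1.77 and 1.82 in Ctr-OPCs, 1.65, 1.56 and 1.79 in Dexa replicates 1, 2 and 4, and 1.35, 1.57, 1.53 and 1.46 in IFN-γ-treated OPCs. All 4 IFN-γ libraries lay below all 4 Ctr libraries, and the Dexa libraries overlapped the Ctr libraries. The ratio was computed after the values were seen and was not tested.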
